A study of Mus musculus with 18 samples.

Results

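Day 6 PGCLCs (primordial germ cell-like cells) made with cytokines from TKO and from wild-type cells were compared across all genes. The comparison rests on 4 of the 18 RNA-seq libraries of the series, 2 replicates of each genotype, and 16582 of 25239 genes had enough counts to be tested. Both genotypes derive from the male mouse ES cell line E14Tg2a, and both were taken through EpiLCs (epiblast-like cells, made with Activin A and Fgf) and then kept as floating aggregates for 6 days with BMP4, BMP8a, SCF, LIF and EGF. In TKO cells the open reading frames of Tet1, Tet2 and Tet3 had been excised with CRISPR/Cas9, and a single clone served for differentiation, so that the genotype and the history of this clone cannot be told apart. According to the study, the wild-type cells were sorted for the surface markers SSEA1 and CD61 while the TKO aggregates were collected whole, although the deposited labels call both of them aggregates. Genotype and sorting therefore cannot be told apart in any difference given here, nor can fewer cells of a type and less RNA per cell. EpiLCs of both genotypes, 2 libraries each and neither of them sorted, were used as a second comparison that shares no library with the first.

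TET enzymes oxidise 5-methylcytosine, and this oxidation is a step towards unmethylated DNA. Primordial germ cells, the precursors of sperm and eggs, are set aside in the epiblast in response to BMP signals under the transcription factors PRDM1, PRDM14 and TFAP2C. Their genome then loses most of its methylation, and genes of the later germline whose promoters are kept silent by methylation in other cells become active.

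The wild-type libraries held 26130723 and 28810831 counted fragments and the TKO libraries 11741889 and 16386003, and low counts are therefore less precise in TKO. The ribosomal locus Rn45s took 33.7 to 37.3% of the fragments in these 4 libraries. Replicates of each genotype differed by more than counting noise, with a chi-square per degree of freedom of 16.3 in wild-type and 24.2 in TKO. The study's legends call the RNA-seq replicates biological, but nothing in the labels says that they came from separate cultures. P-values are therefore taken to measure only the spread between these samples. The levels below are normalised counts (counts divided by a size factor of the library), which compare a gene between samples but not one gene with another.

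Far more genes were higher than lower in TKO. A gene was called where its adjusted p was under 0.05 and its log2 fold change was above 2 or below -2, which are the limits in the study's methods. By this rule 760 genes were higher in TKO (4.58% of genes tested) and 164 were lower (0.989%; edgeR's quasi-likelihood test, Benjamini-Hochberg adjustment over all genes). Without a limit on the fold change 1878 genes were higher (11.3%) and 1249 lower (7.53%), and the median log2 fold change of all genes was 0.046. Of the 760 higher genes, 451 had a mean normalised count below 10 in wild-type, and 65 of the 164 lower genes had one below 10 in TKO. The number called depended on single libraries. It was 457 in place of 924 without wild-type replicate 1, and 666 to 814 without any one of the other 3 libraries.

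**Figure D1:**
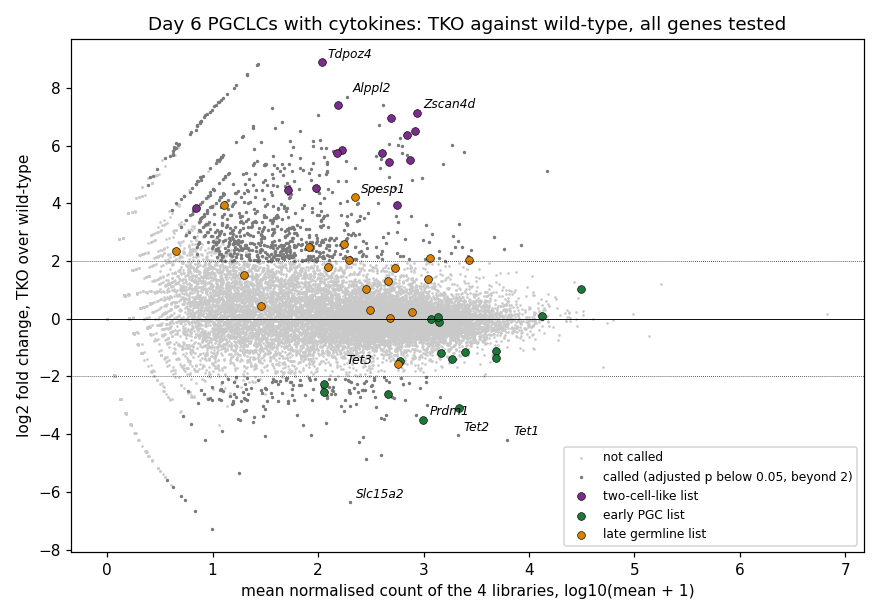
Log2 fold change of TKO over wild-type day 6 PGCLCs (vertical axis) against the mean normalised count of the 4 libraries (horizontal axis, log10 of the mean plus 1), each point a gene tested, with called genes in dark grey and 3 gene lists in colour. The called genes above 2 outnumber those below -2 by 760 to 164, two-cell-like genes lie at the top, and Tet1, Tet2 and several early PGC genes lie at the bottom.

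The deleted genes were examined first. Tet1 was at 12106 and 11504 normalised counts in wild-type and at 503.9 and 783 in TKO, and fell by 4.20 on the log2 scale (SE 0.35, adjusted p = 2.9e-06). Tet2 was at 3114 and 4812 in wild-type and at 186.5 and 292.7 in TKO (log2 fold change -4.04, SE 0.48, adjusted p = 6.46e-05). Tet3 was at 171 and 330.1 in wild-type against 63.83 and 86.1 in TKO (-1.73, SE 0.33, adjusted p = 0.00242). No wild-type library overlapped a TKO library for any of the Tet genes. Such non-overlap was common, with 4940 lower and 5569 higher genes without overlap among the 16582 tested. The counts cover whole genes, so fragments on exon sequence outside the excised frames would still be counted, and the 2 kinds of exon sequence were not separated.

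Of 17 genes of DNA methylation tested, 1 was higher and 7 were lower in TKO, beside 11.3% of all genes tested higher and 7.53% lower. The 7 include the deleted Tet genes. Dnmt3b, a de novo DNA methyltransferase, was the higher one and went from 437.3 and 494.2 to 1136 and 913.8 (log2 fold change 1.13, SE 0.28, adjusted p = 0.0105). Dnmt1, which copies methylation after replication, fell from 7965 and 7834 to 4962 and 4592 (-0.73, SE 0.14, adjusted p = 0.00212). The cofactor of de novo methylation Dnmt3l also fell (-1.23, adjusted p = 0.0327), as did Apobec1 and the uracil glycosylase Smug1. Dnmt3a (log2 fold change 0.03) and Uhrf1 (0.45), which recruits DNMT1, did not pass.

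Among called genes whose libraries did not overlap and whose mean normalised count was at least 50, the 12 of highest log2 fold change included 6 of the two-cell-like list. Two-cell-like genes are transcribed in the mouse embryo at the 2-cell stage and in rare ES cells. Zscan4d, of a family that acts on telomeres in ES cells, was at 9.039 and 14.8 normalised counts in wild-type and at 1730 and 1690 in TKO (log2 fold change 7.14, SE 0.45, adjusted p = 9.61e-07). Its relatives Zscan4f (6.97, SE 0.49) and Zscan4c (6.37, SE 0.58) lay in the same range, with 964.2 and 985 and with 1376 and 1389 normalised counts in TKO. Zscan4b had 3 counts or fewer in each wild-type library and was at least 153-fold higher in TKO. Tdpoz4, a speckle-type POZ protein gene, had 0 and 1 counts in wild-type and 143 and 163 in TKO, at least 106-fold higher. The deubiquitinase gene Usp17lb went from 20.86 and 14.8 to 1636 and 1670 normalised counts (6.53, SE 0.40, adjusted p = 9.61e-07).

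Of the 18 genes in the two-cell-like list, 15 were tested and 14 passed the test, every one of them higher in TKO, against 11.3% of all genes tested. Their log2 fold changes ran from 3.93 for Tmem92 to 8.89 for Tdpoz4, with a list median of 5.74, and the 14 calls stood with any one of the 4 libraries left out. The remaining gene tested, Tcstv1, was at 0 and 1 normalised counts in wild-type to the nearest whole number and at 13 and 9 in TKO, and did not pass. A gene was tested if enough libraries of any group had counts. Members such as Tdpoz4, Zscan4b and Tcstv1 had at most 6.115 normalised counts in any wild-type library and were tested only through TKO libraries. Their direction was then largely set by the filter, and for them the share of 11.3% is no measure. The counts of the whole list summed to 164.8 and 267 in wild-type and to 11564 and 11241 in TKO. Members of these families are close copies of each other, and since fragments that map to several places were not counted, the values of single members are uncertain.

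Of the other top genes, Gm1995, Gm2022, Gm8300 and B020004J07Rik, are predicted genes. Gm1995 went from 4.172 and 5.148 to 883.6 and 743.9 normalised counts (log2 fold change 7.40, SE 0.59, adjusted p = 5.61e-06) and Gm8300 from 16.69 and 14.16 to 1078 and 1294 (6.25, SE 0.41). Gm1995, Gm2022 and Gm8300 lie within a single group of predicted genes on chromosome 12 (mm10; Gm8300 from 87514316 to 87518265, Gm5039 at the other end from 88320122 to 88321762). Gm2016, Gm5662, Gm6803, Gm7104 and BB287469 lie between them, and these genes, chosen after their values were seen, had log2 fold changes of 5.63 to 6.19. Neighbours outside this group such as Adck1 (-0.14) and Snw1 (0.35) did not pass, whereas Gstz1, a glutathione transferase, was lower (-0.85, adjusted p = 0.0384, edgeR). Alppl2, an alkaline phosphatase of the placental type, was at 0.6953 and 2.574 in wild-type and at 294 and 447.7 in TKO (7.70, SE 0.78, adjusted p = 3.72e-05). Cpb2, a carboxypeptidase of plasma, had 3 counts or fewer in each wild-type library and was at least 65.3-fold higher in TKO.

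**Figure D2:**
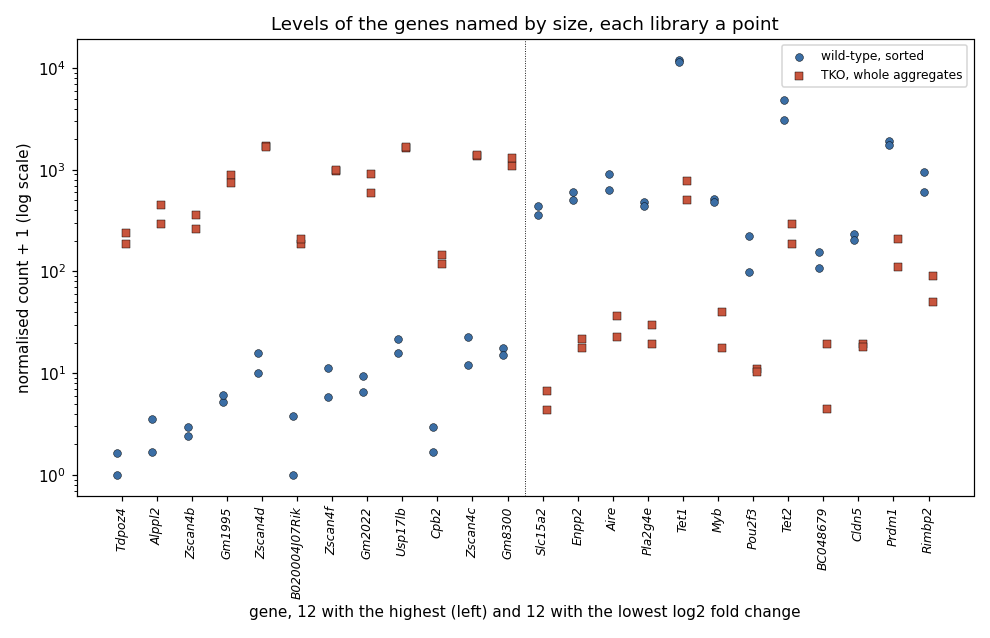
Normalised count plus 1 in each library (vertical axis, log scale) of the 12 genes with the highest and the 12 with the lowest log2 fold change, circles for the 2 wild-type libraries and squares for the 2 TKO libraries. The 2 genotypes do not overlap for any gene, as the choice of genes required, and replicates lie close together beside the gap between genotypes.

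At the other end, the peptide transporter Slc15a2 was at 355.3 and 438.2 normalised counts in wild-type and at 3.36 and 5.74 in TKO (log2 fold change -6.36, SE 0.67, adjusted p = 2.33e-05). Enpp2, which encodes the lysophosphatidic acid-producing enzyme autotaxin, fell from 598.7 and 508.4 to 16.8 and 20.66 (-4.87, SE 0.47, adjusted p = 1.17e-05). Aire, a regulator of transcription known from the thymus and also transcribed in germ cells, went from 627.2 and 902.2 to 21.84 and 35.59 (-4.71, SE 0.64). The transcription factor Myb went from 510.4 and 485.8 to 16.8 and 39.03 (-4.10, SE 0.33), and the POU factor Pou2f3 from 98.04 and 220.7 to 10.08 and 9.184 (-4.04, SE 0.76). Pla2g4e, a phospholipase (-4.26), the tight junction gene Cldn5 (-3.60), Rimbp2 (-3.48) and BC048679 (-3.67) were also among the 12 lowest, with Prdm1, Tet1 and Tet2.

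Most genes of early PGCs on the list were lower in TKO. All 16 genes of the list were tested, and 10 were lower and none higher, against 7.53% of all genes tested lower, with a median log2 fold change of -1.27. Prdm1, which encodes BLIMP1, a repressor of somatic genes in PGCs, went from 1900 and 1755 normalised counts in wild-type to 110.9 and 207.8 in TKO (log2 fold change -3.51, SE 0.36, adjusted p = 1.85e-05). Ifitm1, a surface protein gene of early PGCs, fell from 4063 and 3656 to 445.1 and 456.9 (-3.10, SE 0.21, adjusted p = 9.61e-07). Nanos3, needed for PGC survival, was at 239.2 and 141.6 in wild-type and at 35.28 and 31 in TKO (-2.53, SE 0.41, adjusted p = 0.000762). Dnd1, an RNA-binding protein with a similar role, fell by 2.62 and the migration receptor Cxcr4 by 2.27 on the log2 scale. Changes of smaller size that passed were those of Dppa3 (-1.47), Pecam1 (-1.39), Ifitm3 (-1.17), Tfap2c (-1.17) and Alpl (-1.12).

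Other PGC genes did not pass. Prdm14 was at 1295 and 1046 in wild-type and at 1080 and 1235 in TKO (log2 fold change -0.02, SE 0.33), and its libraries overlapped between genotypes, as did those of Pou5f1 (0.11, SE 0.42). Kit, the receptor of SCF, had 7481 and 6649 against 2113 and 3368 normalised counts but did not pass (-1.37). Dppa5a was at 20428 and 20278 in wild-type against 43260 and 41172 in TKO, with an adjusted p of 0.0563 (edgeR). Of genes tied to the sort, Itgb3, which encodes CD61, was at 536.8 and 443.4 against 320.8 and 392.6 (-0.46, adjusted p = 0.479, edgeR), and Fut9, an enzyme that makes the SSEA1 sugar, at 740.5 and 649.3 against 141.1 and 423.6 (-1.29, adjusted p = 0.0499, edgeR). The remaining gene of these 3 sort markers had a log2 fold change of 1.29 and did not pass. Of the 3, 1 was thus lower and none higher, beside 7.53% of all genes tested lower and 11.3% higher. The part of the sort in the early PGC genes was not tested. Without wild-type replicate 1 or without TKO replicate 1, 5 and 6 of the 16 genes passed in place of 10, every one of them lower.

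Most late germline genes tested were higher in TKO. Of 22 listed genes 19 were tested, and 12 were higher and 1 was lower, beside 11.3% of all genes tested higher and 7.53% lower, with a median log2 fold change of 1.76 (1.56 with genes near 0 in wild-type set to their lower bound). Spesp1, which encodes a protein of the sperm equatorial segment, went from 18.77 and 26.38 to 389.7 and 451.2 normalised counts (log2 fold change 4.21, SE 0.46, adjusted p = 3.26e-05). Taf7l, a germ cell partner of the general transcription machinery encoded on the X chromosome, went from 49.37 and 49.55 to 233.5 and 370.8 (2.61, SE 0.36). Stra8, the gatekeeper of meiosis, was at 249.6 and 237.4 in wild-type and at 796.2 and 859.9 in TKO (1.76, SE 0.40, adjusted p = 0.00818). Dazl, a translational regulator that licenses germ cells, was at 583.4 and 630.6 against 905.4 and 2290 (1.39, SE 0.44, adjusted p = 0.039), the 2 TKO libraries lying far apart. The RNA helicase gene Ddx4 (1.05) and the bromodomain gene Brdt (2.47) rose too, as did Sohlh1, which encodes a transcription factor of spermatogonia and oocytes. Tex14, of the bridges between germ cells, was the 1 lower gene (-1.58, adjusted p = 0.0246). The study singled out 8 germline or gonad genes on these same samples, of which 7 were higher and 1, the early marker Dppa3, was lower, and this is not independent evidence of a direction.

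The late germline calls rested in part on single libraries, since 5 genes of the list were higher without wild-type replicate 1, 6 without wild-type replicate 2 and 6 without TKO replicate 2. Genes that act in meiosis itself, after its onset, did not move one way. Of 26 tested, 4 were higher and 3 lower, beside 11.3% of all genes tested higher and 7.53% lower, with a median log2 fold change of 0.10. The synaptonemal complex gene Sycp1 rose from 42.41 and 70.14 to 173 and 355.9 (2.23, SE 0.47), whereas Meiob, which acts in meiotic recombination, fell from 59.1 and 55.34 to 1.68 and 4.592 (-4.06, SE 1.11, adjusted p = 0.0196). Rad21l, a meiotic cohesin, had 0 and 1 counts in wild-type and 3 and 10 in TKO. None of the lower meiosis genes passed with any one library left out, and 0 to 3 of the higher genes did.

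In the piRNA pathway, which silences transposons in germ cells, 3 of 19 genes tested were higher and 3 lower, beside 11.3% of all genes tested higher and 7.53% lower. Mael went from 73.01 and 86.23 to 433.4 and 548.8 normalised counts (log2 fold change 2.62, SE 0.29, adjusted p = 5.68e-05), and Mov10l1 and Tdrd1 were the other 2 that rose. Fkbp6, a cochaperone of piRNA loading, fell from 310.8 and 317.9 to 11.76 and 53.96 (-3.21, SE 0.54), and Exd1 and Tdrd5 fell as well. Piwil2, one of the slicers of the pathway, was at 470 and 404.8 against 492.2 and 618.8 and did not pass (0.34). Of the 2 further PIWI genes tested, Piwil4 (-2.39) and Piwil1 (-0.42) did not pass either.

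Promoters of both groups of higher genes are shown because DNA methylation acts on CpG pairs. The 150 bases before the annotated start of a gene are given below, 5′ to 3′ on the strand of the gene, for 4 two-cell-like and 4 late germline genes with a single annotated start (RefSeq, GRCm38.p6), and capitals mark CpG pairs, the sites that DNA methyltransferases modify and TET enzymes act on.
Zscan4b, chr7:10905051-10905200, minus strand: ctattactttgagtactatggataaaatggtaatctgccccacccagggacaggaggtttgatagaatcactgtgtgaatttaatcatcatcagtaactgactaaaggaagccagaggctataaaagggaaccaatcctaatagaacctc
Zscan4f, chr7:11397765-11397914, plus strand: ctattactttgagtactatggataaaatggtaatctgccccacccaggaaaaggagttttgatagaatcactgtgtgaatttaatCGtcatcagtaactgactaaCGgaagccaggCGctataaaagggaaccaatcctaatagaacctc
Usp17lb, chr7:104842584-104842733, minus strand: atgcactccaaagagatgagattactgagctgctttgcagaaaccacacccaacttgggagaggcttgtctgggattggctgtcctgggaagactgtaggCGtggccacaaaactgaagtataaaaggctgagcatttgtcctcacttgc
Tdpoz4, chr3:93796248-93796397, plus strand: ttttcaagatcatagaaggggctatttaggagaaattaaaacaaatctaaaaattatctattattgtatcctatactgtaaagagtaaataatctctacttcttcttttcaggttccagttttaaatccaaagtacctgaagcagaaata
Dazl, chr17:50293621-50293770, minus strand: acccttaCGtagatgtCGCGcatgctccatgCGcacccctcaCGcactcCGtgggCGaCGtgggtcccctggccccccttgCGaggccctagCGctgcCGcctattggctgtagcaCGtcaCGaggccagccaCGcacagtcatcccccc
Taf7l, chrX:134476491-134476640, minus strand: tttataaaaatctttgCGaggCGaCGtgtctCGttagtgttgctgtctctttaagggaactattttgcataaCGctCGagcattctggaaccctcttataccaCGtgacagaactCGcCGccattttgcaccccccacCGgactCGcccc
Spesp1, chr9:62282180-62282329, minus strand: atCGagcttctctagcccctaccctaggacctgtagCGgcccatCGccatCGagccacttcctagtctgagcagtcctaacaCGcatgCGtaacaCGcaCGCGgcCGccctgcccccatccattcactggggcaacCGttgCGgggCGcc
Brdt, chr5:107331044-107331193, plus strand: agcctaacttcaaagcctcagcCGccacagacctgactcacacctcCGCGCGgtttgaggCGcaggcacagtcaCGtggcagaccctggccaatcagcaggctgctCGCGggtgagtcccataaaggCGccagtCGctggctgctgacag

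Over the 250 bases before the start, the 10 two-cell-like genes with a promoter among the 14 that were higher held 0 to 3 CpG pairs. All 12 late germline genes that were higher had one, and held 5 to 31 (median 15), beside a median of 15 over the 12819 of 16582 genes tested with a promoter. Since a promoter was found for 71.4% of the two-cell-like genes and 77.3% of all genes, below 80%, a comparison of the groups is void and the counts stand for the genes with a promoter only. The letters CACGTG, the E-box that basic helix-loop-helix factors bind and which reads the same on both strands, were in the promoters of 6 of the 12 late germline genes (Ddx4, Taf7l, Slc25a31, Stk31, Brdt and Sohlh1) and of 9.5% of all genes with a promoter. The letters TATAAA, searched only on the strand of the gene, were in 7 of the 10 two-cell-like promoters and in 5.07% of all. Those 7 are all of Zscan4 or Usp17l genes, whose members are close copies, and do not count as independent of each other. For neither motif is the share over all genes a comparison, since promoters were found for too few of them. The letters TATAAA did not overlap the E-box letters. Zscan4b and Zscan4f shared 143 of the 150 bases shown, position by position without gaps.

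Naive pluripotency genes, which PGCs share with ES cells, had calls at about the share of all genes. Of 15 tested, 2 were higher and 1, the deleted Tet2, was lower, beside 11.3% of all genes tested higher and 7.53% lower, with a median log2 fold change of -0.09. Klf4 went from 1185 and 2212 to 4971 and 4352 normalised counts (log2 fold change 1.45, SE 0.34) and Fgf4 from 995 and 1409 to 4559 and 3320 (1.71, SE 0.32). Nanog (0.49), Esrrb (-0.32) and Sox2 (-0.51) did not pass. Of 16 formative and primed genes, 3 were higher, Sall2 by the largest log2 fold change (2.90, from 41.02 and 63.06 to 490.5 and 293.9), and Lef1 was lower (-2.97, from 488.8 and 321.7 to 60.47 and 44.77).

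Targets of signalling pathways were counted next, of which BMP and LIF were supplied in the medium from EpiLCs onwards, beside 11.3% of all genes tested higher and 7.53% lower. Of 12 BMP target genes 2 were higher and none lower, a share near that of all genes. Id1, which encodes an inhibitor of basic helix-loop-helix factors, went from 297.6 and 254.2 to 2871 and 1340 normalised counts (log2 fold change 2.93, SE 0.63), and Id2 from 63.27 and 102.3 to 547.6 and 295 (2.33, SE 0.59), while Smad7 (-0.22) and Smad6 (0.07) did not pass. Neither Id1 nor Id2 passed without wild-type replicate 1 or without TKO replicate 1. Of 10 genes of FGF and ERK feedback none was higher and 3 were lower, the phosphatase gene Dusp4 from 2917 and 2019 to 414.9 and 350.1 (-2.70, SE 0.46), with Etv5 (-1.48) and Egr1 (-1.96). Of 11 WNT targets 2 were lower, Lef1 and Tcf7 (-1.03), and none was higher. Of 10 LIF and STAT3 targets Klf4 and Bcl3 (1.14) were higher and the receptor subunit gene Il6st was lower (-1.08, from 2317 and 2316 to 1008 and 1188).

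Lists of markers of other cell types were counted against 11.3% of all genes tested that were higher and 7.53% that were lower. Among the endoderm, mesoderm, trophoblast and neural lists, the mesoderm and neural counts lay closest to these shares. Of 12 endoderm genes tested 6 were higher and none lower, Sox17 from 4.867 and 7.078 to 60.47 and 75.77 normalised counts (log2 fold change 3.48, SE 0.56) and Foxa1 from 11.82 and 21.88 to 104.1 and 188.3 (3.10, SE 0.48), whereas Afp had no count in any library and Ttr, at 2.086 and 0.6435 in wild-type and at 0 in TKO, did not pass. Of 25 mesoderm genes 5 were higher, with Hand1 from 11.82 and 39.25 to 179.7 and 155 (2.69, SE 0.61), Snai1 (2.54) and Twist1 (2.04), while T, the defining gene of the streak, was at 1 to 20 in all 4 libraries and did not pass (-1.04). Of 10 trophoblast and simple epithelium genes 5 were higher, the keratins Krt8 from 52.84 and 151.9 to 1001 and 1096 (3.35, SE 0.60) and Krt18 from 121 and 216.9 to 1137 and 1192 (2.78, SE 0.72), while Tpbpa had no count and Cdx2 did not pass (-1.24). Of 16 neural genes 3 were higher and Pax6 was lower (-1.71), and Tubb3, the neuronal tubulin, went from 313.6 and 261.3 to 1544 and 667 (1.94, SE 0.34).

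Of 10 blood and endothelial genes tested 1 was higher, Runx1 (log2 fold change 2.80), beside 11.3% of all genes tested higher and 7.53% lower. The embryonic globin Hbb-bh1 was the 1 lower gene, with 0 counts in both TKO libraries and 21 and 13 in wild-type. Of 9 gonadal somatic genes Wt1 alone was higher (2.21). Summed over each list, normalised counts were 758.6 and 1039 in wild-type against 3496 and 3573 in TKO for trophoblast and simple epithelium, 970.6 and 1457 against 2427 and 1437 for mesoderm, 1344 and 1727 against 1475 and 1618 for endoderm and 238.5 and 305.7 against 354.4 and 243.4 for blood and endothelium. They were 1115 and 1046 against 3128 and 2027 for neural genes and 258 and 291.5 against 309.1 and 314.6 for gonadal somatic genes. The sums of these last 2 lists and of trophoblast and simple epithelium did not overlap between genotypes, and the other sums did. Among single genes such non-overlap was common (5569 higher and 4940 lower of 16582 tested). Without wild-type replicate 1 the numbers of higher genes were 3 for endoderm, 0 for mesoderm, 1 for trophoblast and simple epithelium and 1 for neural genes. The wild-type cells were sorted and the TKO cells were not, and the part of other cell types in any of these differences was not tested.

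Hox genes, which pattern the body axis and are held silent by Polycomb complexes in early cells, were higher in TKO without exception among those that passed. Of 39 genes of the clusters 30 were tested, 18 were higher and none was lower, beside 11.3% of all genes tested higher and 7.53% lower, with a median log2 fold change of 2.90 (2.48 with lower bounds). Their levels were low. Counts of the whole list summed to 179.4 and 256.1 in wild-type and to 1211 and 1145 in TKO. Of the 30 genes tested, 7 had 3 counts or fewer in each wild-type library. A gene this low in wild-type could hardly be called lower in TKO. For such genes the shares of all genes are no measure of direction. Hoxa10 was at 4.172 and 6.435 in wild-type and at 80.63 and 71.18 in TKO (log2 fold change 3.80, SE 0.74, adjusted p = 0.00305), Hoxd9 at 11.82 and 9.652 against 94.07 and 89.55 (3.08, SE 0.77) and Hoxd13 at 9.734 and 12.87 against 70.55 and 97.58 (2.88, SE 0.66). Hoxa6 had 0 and 1 counts in wild-type and was at least 10.5-fold higher in TKO. Only 4 of the 18 passed without wild-type replicate 1, 6 without TKO replicate 1 and 11 without wild-type replicate 2. Of 13 genes of PRC2 and canonical PRC1, Phf19, which helps PRC2 bind chromatin, fell from 1269 and 1066 to 157.9 and 174.5 (-2.81, SE 0.29, adjusted p = 2.29e-05) and Cbx8, a reader of the Polycomb mark, rose from 22.95 and 24.45 to 218.4 and 119.4 (2.82, SE 0.36), and the other 11 did not pass, Ezh2 (-0.19) and Suz12 (-0.42) among them. Of 15 genes of PRC1.6 and other repressors of germline genes, Mga (-0.90), L3mbtl2 (-0.70) and Max (-0.51) were lower and Yaf2 (1.49) was higher.

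Collagen and laminin genes, of the basement membrane and matrix, had 16 higher and 1 lower gene among 54 tested, beside 11.3% of all genes tested higher and 7.53% lower, with a median log2 fold change of 1.18 (1.02 with lower bounds). Col4a1 went from 276 and 535.4 to 3709 and 4186 normalised counts (log2 fold change 3.28, SE 0.40, adjusted p = 8.03e-05) and Col4a2 from 141.1 and 254.2 to 1900 and 1886 (3.25, SE 0.47), the genes of the collagen chains of every basement membrane. Col3a1, of mesenchyme, was at 10 and 124 against 692 and 90, to the nearest whole number, and did not pass. Without wild-type replicate 1, TKO replicate 2 or TKO replicate 1, 4, 7 and 10 genes were higher in place of 16.

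Of 38 imprinted genes, which are transcribed from a single parental allele under control of methylation, 5 were higher and 3 lower, about the share of all genes tested (11.3% higher and 7.53% lower), and the median log2 fold change was 0.0069. Grb10, a growth inhibitor, went from 507.6 and 403.5 to 2815 and 3833 normalised counts (log2 fold change 2.86, SE 0.54, adjusted p = 0.00212). Igf2 was at 216.9 and 1602 in wild-type, replicates that lie far apart, and at 5396 and 4064 in TKO (2.37, SE 0.72, adjusted p = 0.0327). Cdkn1c (1.65), Gnas (1.43) and Ndn (0.88) rose as well, while Mest (-2.56), Zdbf2 (-1.48) and Peg3 (-1.26) fell. H19, the untranslated neighbour of Igf2, did not pass (-1.77).

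The next lists stand beside 11.3% of all genes tested higher and 7.53% lower. Among 18 interferon-stimulated genes 4 were higher, Oas1a from 41.72 and 55.34 to 351.1 and 283.6 normalised counts (SE of the log2 fold change 0.38) and Gbp2 and Usp18 among the others. Ddx58, the RNA sensor RIG-I, was lower (-1.72). The inducible heat shock genes Hspa1a (3.26) and Hspa1b (3.31) were higher, in a list of immediate early and heat shock genes with 2 higher and 3 lower of 16. Of 20 genes of hypoxia and glycolysis none was higher and 1 was lower, and of 14 genes of the p53 response none passed. Of 16 cell cycle genes 2 were higher and none was lower. On the Y chromosome Ddx3y fell from 618.1 and 839.7 to 38.64 and 94.14 (-3.42, SE 0.39, adjusted p = 4.33e-05) and Uba1y rose (1.74), while Eif2s3y (-0.28) and Uty (-0.04) did not pass.

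**Figure D3:**
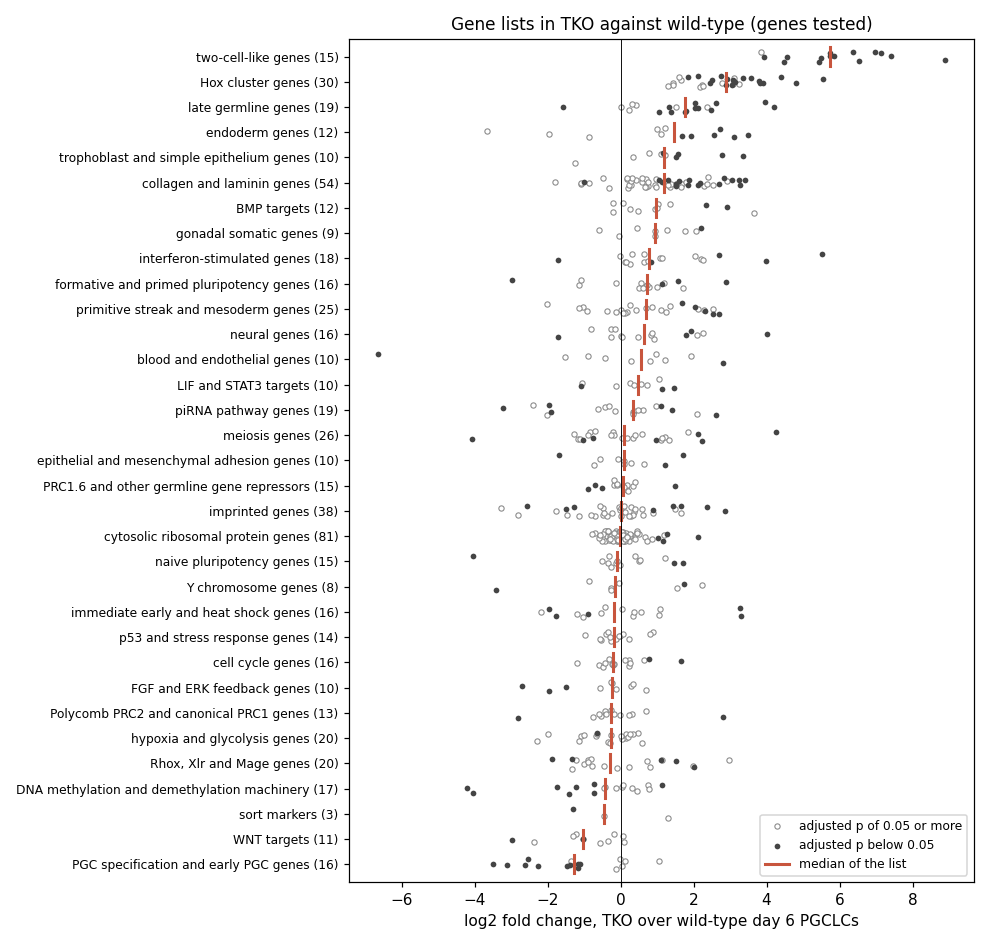
Log2 fold change of TKO over wild-type day 6 PGCLCs (horizontal axis) for each gene tested in 33 lists (vertical axis, with the number of genes tested), filled points for an adjusted p below 0.05, and red bars for list medians. Two-cell-like genes lie to the right of the other lists with a median of 5.74, and the early PGC genes have the lowest median, -1.27.

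Differences between genotypes also followed position. Over genes with a mean normalised count of 50 or more, the median log2 fold change was between -0.12 and 0.07 on every autosome except chromosome 14, where it was 0.37 (398 genes), and was 0.50 on the X chromosome (403 genes). In windows of 5 Mb (mm10) the medians at day 6 were mostly above 0.5 beyond 70 Mb on the X chromosome. On chromosome 14 they were 0.38, 0.52 and 0.33 in the windows from 45 to 60 Mb, where those of EpiLCs were 0.12, -0.21 and -0.02, and between 0.39 and 1.2 beyond 60 Mb. The chromosomes were split at 70 and 60 Mb after the values of both comparisons were seen. With this split, the median log2 ratios of the 2 TKO libraries over wild-type were 0.65 and 0.80 for 267 genes of the distal X chromosome and -0.14 and -0.09 for 136 genes of the proximal one. They were 0.68 and 0.76 for 162 genes of distal chromosome 14 and 0.15 and 0.20 for 236 proximal genes.

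The same parts were measured in the other comparisons of TKO with wild-type, of which EpiLCs had been seen when the split was set. In EpiLCs the 2 TKO libraries had medians of 0.82 and 0.85 on the distal X chromosome and 0.70 and 0.70 on distal chromosome 14. At day 2 without cytokines they were 0.66 and 0.70, and 0.52 and 0.52, and at day 6 without cytokines 0.73 and 0.78, and 0.54 and 0.74. The libraries of these 3 comparisons were not sorted. Proximal chromosome 14, at 0.15 and 0.20 at day 6 with cytokines, was between -0.08 and 0.04 in them. The number of copies of these regions was not tested. On the distal X chromosome 37.9% of 406 genes tested were higher and 1.72% lower, and on distal chromosome 14 41.2% of 228 were higher and 1.32% lower, beside 11.3% and 7.53% of all genes. Of the 4 cytosolic ribosomal protein genes that were higher among 81 tested, Rps4x (1.27), Rpl10 (1.01) and Rpl36a (1.15) are on the distal X chromosome, and so are all 3 higher genes of the Rhox, Xlr and Mage list, Maged1 (1.51), Maged2 (1.11) and Magee1 (2.00), as well as Taf7l. Gata4 and Sox7 are on distal chromosome 14, and so is Cpb2, one of the genes of highest log2 fold change. Uneven numbers of higher genes per list can therefore go with position, whose part in each list was not tested. Leaving out both chromosomes left 674 genes higher and 161 lower.

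**Figure D4:**
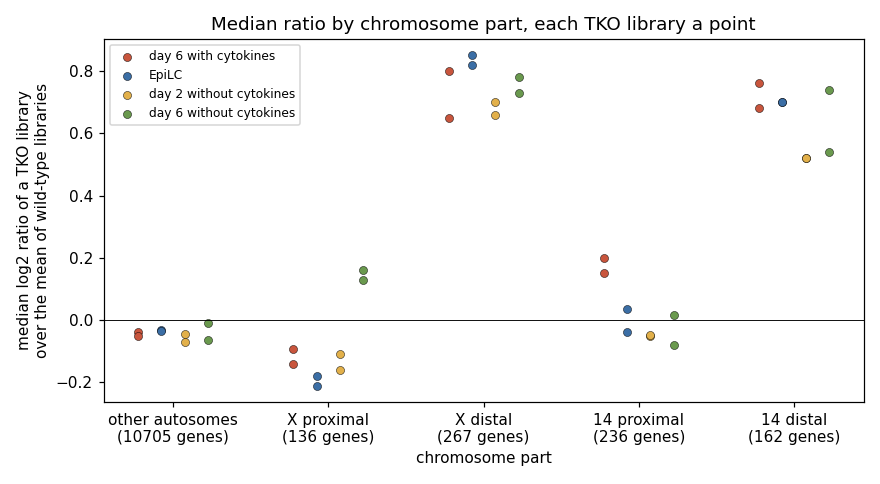
Median log2 ratio of each TKO library over the mean of the matched wild-type libraries (vertical axis) for genes of parts of the X chromosome and chromosome 14 and of all other autosomes (horizontal axis), with 4 matched comparisons in colour and 2 TKO libraries each. The distal parts lie between 0.52 and 0.85 in all 4 comparisons, and the other autosomes lie between -0.07 and -0.01.

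TKO EpiLCs had fewer differences from wild-type EpiLCs, with 284 genes higher (1.71% of genes tested) and 99 lower (0.597%) under the same limits. The 73 genes higher in both comparisons were 9.61% of those at day 6 and 25.7% of those in EpiLCs, and 17 genes higher at day 6 were lower in EpiLCs. The 14 genes lower in both were 8.54% and 14.1%. The genotype difference itself differed between day 6 with cytokines and EpiLCs for 1265 genes with an adjusted p below 0.05 (7.63% of genes tested), and for 517 with a log2 difference beyond 2 as well (3.12%). In EpiLCs the median log2 fold change was 0.644 for late germline, 1.49 for endoderm, 1.62 for trophoblast and simple epithelium and 1.13 for Hox genes. At day 6 these medians were 1.76, 1.46, 1.19 and 2.90. For early PGC genes the median was 0.47 in EpiLCs and -1.27 at day 6, and for two-cell-like genes -2.87 and 5.74. The shift of these medians was not tested.

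The two-cell-like genes were almost without counts in TKO EpiLCs. Zscan4d had 20.88 and 16.12 normalised counts in wild-type EpiLCs and none in TKO EpiLCs, and Gm8300 had 8.032 and 2.779 against none. In TKO cells with cytokines Zscan4d was at 48.73 and 127.8 on day 2 and at 1730 and 1690 on day 6, and Gm8300 at 56.66 and 119.2 and at 1078 and 1294. In TKO cells without cytokines on day 6 Zscan4d was at 1078 and 1405, and in wild-type cells without cytokines it had no count. Alppl2 was at 294 and 447.7 in TKO with cytokines on day 6 and at 37.69 and 47.96 without. Prdm1 was at 361.5 and 275.6 in TKO with cytokines on day 2, at 110.9 and 207.8 on day 6 and at 422.1 and 483.4 on day 6 without cytokines, every TKO library below the 1900 and 1755 of wild-type PGCLCs. Aire and Enpp2 were at 57.54 and 255.1 and at 615.1 and 467.3 in TKO EpiLCs, higher than the 21.84 and 35.59 and the 16.8 and 20.66 of TKO on day 6. Slc15a2 was already low in TKO EpiLCs, at 0 and 6.597 against 48.19 and 44.47 in wild-type. These comparisons with other conditions are given as values and were not tested.

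**Figure D5:**
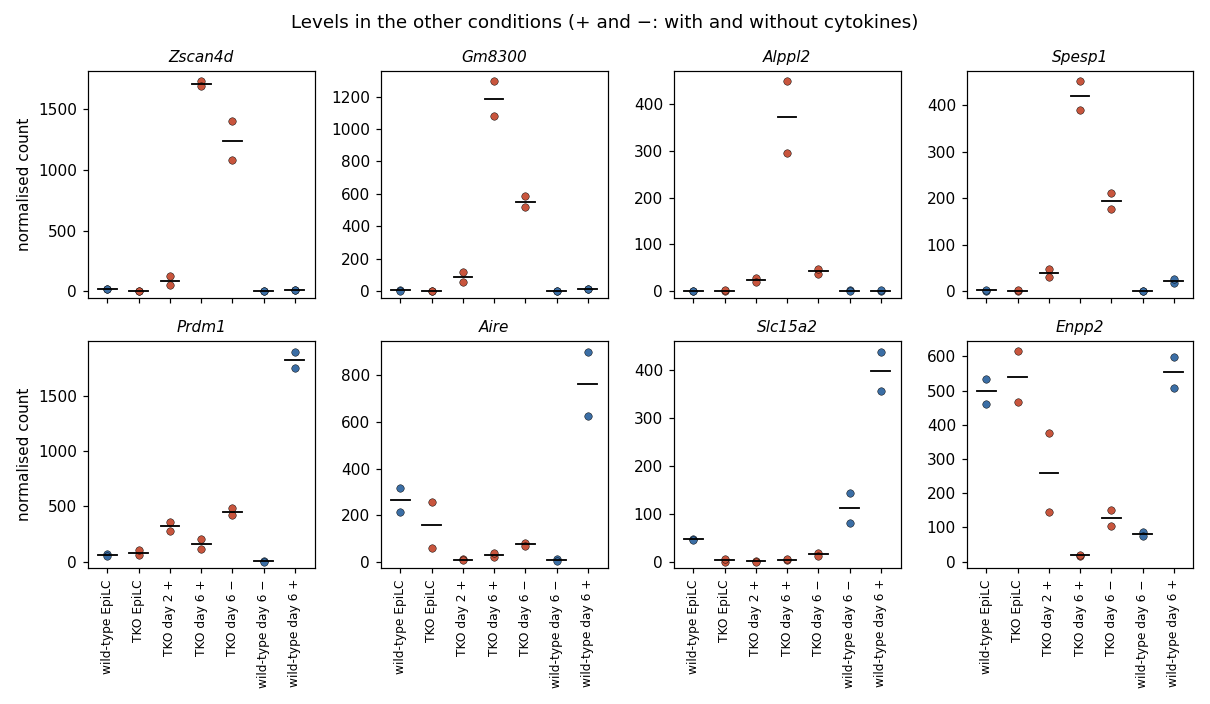
Normalised counts (vertical axes) of 8 genes in 7 conditions (horizontal axes, + and − for cytokines), wild-type in blue and TKO in red, each point a library and each bar the mean of 2. Zscan4d, Gm8300 and Spesp1 are high in TKO at day 6 with and without cytokines, Alppl2 mainly with cytokines, and Prdm1, Aire and Slc15a2 are highest in wild-type day 6 PGCLCs.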

How the data were processed

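Paired-end reads of ribosome-depleted directional libraries were trimmed by the authors with Trim Galore 0.5.0 and cutadapt 1.16, aligned to mm10 with STAR 2.7.1a and counted with Subread 1.5.2 (per the submitters' processing notes). The deposited values are raw counts of fragments on exons of the refGene annotation. Per the file headers, strand was not used and fragments that map to several places were not counted. In the table, 33 header lines without values were removed. The 18 libraries entered 1 fit with a mean for each of 9 groups, using TMM factors and filterByExpr (edgeR 4.0.16 in R 4.3.3). Contrasts were tested by quasi-likelihood in edgeR, with adjustment over all genes tested. The standard error of a contrast was taken as its absolute size over the root of its F statistic. Levels are counts divided by size factors of DESeq2 1.42.0. Where all libraries of a group had 3 counts or fewer, a fold was computed against 3 counts per library, as a lower bound. Positions and promoters were taken from RefSeq (GRCm38.p6, the build of mm10), and 16495 of the genes tested had a position. Scripts were tested on simulated data.

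Genes were named by size (12 at each end of the log2 fold changes, among genes past adjusted p 0.05 whose mean normalised count was at least 50 and whose groups did not overlap), as Tet genes, or from gene lists. The comparison, the rule and the lists were chosen with earlier results of these data known. The alternatives were DESeq2's Wald test, other filters and factors, no Rn45s, a replicate block, only the libraries compared, other limits, and leaving out each library. A count without chromosomes X and 14 was added after the data were examined. With 2 libraries per group an exact test of 1 gene cannot reach p = 0.05, so all tests rest on a spread shared between genes and groups.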

Additional observations from a re-analysis of the deposited data

Results flagged for a closer look

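For these genes the genotype difference itself differed between day 6 with cytokines and EpiLCs, by the contrast of the 2 differences in 1 model (edgeR's quasi-likelihood test, adjusted over all genes). Over all genes, 517 passed with a log2 difference beyond 2. The genes named below were chosen for their log2 fold change at day 6, which is part of this contrast. Its sign was therefore largely set by the choice, and their p-values are no independent evidence. Among the genes of highest log2 fold change, the difference at day 6 exceeded that in EpiLCs by 10.3 for Zscan4b, 9.03 for Gm1995, 14.4 for Zscan4d, 10 for B020004J07Rik, 11.2 for Zscan4f, 11.6 for Gm2022, 11.7 for Usp17lb, 7.54 for Zscan4c and 11.5 for Gm8300 on the log2 scale, with adjusted p from 9.93e-06 to 0.0251 (edgeR). TKO EpiLCs had no count or nearly none of these genes, so that the sizes depend on the prior count of the fit and are no bounds. Among the lowest genes, the log2 difference was -5.02 for Enpp2, -3.99 for Aire, -5.59 for Pla2g4e, -4.54 for Myb, -2.87 for Tet2, -3.64 for Cldn5, -3.93 for Prdm1 and -4.33 for Rimbp2. Their adjusted p ran from 2.15e-05 to 0.0167 (edgeR). Groups of 2 were too small to examine for a library that stands apart.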

How the results depend on the processing

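Tests rest on 2 libraries per group, and with 1 left out the lone library is assumed to vary like the other groups. The 924 genes called at day 6 became 2083 with a log2 fold change beyond 1, 3127 with no limit on it and 580 with adjusted p below 0.01, and 457 to 814 with 1 library left out. For TKO against wild-type EpiLCs, the 383 genes called became 609 by library size alone (531 higher and 78 lower, in place of 284 and 99), 1127 beyond 1, 1783 with no limit and 168 at 0.01, and 169 to 380 with 1 library left out. The 517 genes whose difference differed became 1141, 1265 and 223, and 264 to 616. By library size alone 236 of these were positive and 451 negative, in place of 294 and 223. Library size alone moved the median of all genes at day 6 to -0.0081. The other alternatives left each number within 1.5 times, among them DESeq2's Wald test (911 at day 6), RLE factors (925) and only the libraries compared (948).

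With the replicate block, 911 genes were called at day 6, 382 in EpiLCs and 515 for the difference. Labels give replicate numbers but no shared batch. Deviations of same-numbered day 6 libraries had a correlation of 0.06 between genotypes, where all pairs of groups ran from -0.27 to 0.317. Whether same-numbered libraries share a batch was not tested. The 24 genes named by size passed under every alternative run. Of the 183 genes called among these and the lists, 85 to 126 passed with 1 day 6 library left out, and none turned its direction.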

Other observations

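Some further gene groups were described after their values were seen, and get no test of the group. Some of their genes, such as Krt8, Krt18 and Tubb3, were already counted in the lists above. Over all genes tested 11.3% were higher and 7.53% lower. Members such as Pramel3, with at most 2.086 normalised counts in any wild-type library, and the serpin gene Serpina3k, with none, were tested only through TKO libraries. Their direction was largely set by the filter, and for them these shares are no measure. Of 9 Pramel and Pramef genes tested, a family of testis and embryo, 8 were higher in TKO. Pramel7 went from 8 and 24 normalised counts, to the nearest whole number, to 756 and 778 (log2 fold change 5.52) and Pramel6 from 24 and 35 to 670 and 693 (4.53). Of 7 glutathione S-transferase mu genes, which detoxify electrophiles, 4 were lower, Gstm1 from 1946 and 1854 to 217 and 261 (-2.99) and Gstm3 from 854 and 742 to 67 and 92 (-3.32), and none was higher. Of 15 GABA receptor genes 5 were higher, among them Gabrq (log2 fold change 5.82) and Gabra3, which both lie on the distal X chromosome. Among neuronal cytoskeleton genes 9 of 13 were higher and 2 were lower, Stmn2 from 526 and 665 to 4351 and 2392 (SE of the log2 fold change 0.29) against Ina from 680 and 508 to 96 and 85 (-2.73). Dpysl2 and Nefl, among the higher ones, lie on distal chromosome 14. Of the other groups examined in this way, 4 of 18 keratin genes, 9 of 22 serpin genes and 5 of 16 genes of matrix metalloproteinases and their inhibitors were higher, and none was lower.

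Among the called genes of highest level, Lars2, a mitochondrial leucyl-tRNA synthetase, was at 56742 normalised counts in TKO replicate 1 and at 543 in TKO replicate 2, beside 716.9 and 943.4 in wild-type, and Mir6236 was at 5846 and 75.77 beside 53.54 and 88.8. Both were called (adjusted p = 0.0216 and 0.0285, edgeR) although TKO replicate 2 lies within or below the wild-type range, and only 1 library carries the difference. Dusp9, an X-linked ERK phosphatase, was at 2959 and 1905 against 17455 and 11206 (2.56, SE 0.35), Upp1, a uridine phosphorylase, at 1112 and 1181 against 8449 and 8005 (2.84, SE 0.65), and Aqp3, a water channel, at 609.1 and 783.8 against 4599 and 3273 (2.49, SE 0.24).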
